A study of Mus musculus with 6 samples.

Results

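The 39 mouse Hox genes were examined in 6 RNA libraries of bEnd.3 cells, which were derived from mouse brain endothelium and made immortal by a polyomavirus oncogene. Members were the protein-coding genes of the GRCm38 annotation whose symbol is Hox, a cluster letter from a to d and a number, and all 39 were found among the 55335 gene identifiers in the files. The symbols alone decide membership, but the family itself was chosen by its measured FPKM levels in these 6 libraries, so levels are given as a description without a test. Of the 6 libraries, 3 came from control cells given 100 µl of culture medium and 3 from cells given mitochondria from primary mouse astrocytes in the same volume, and cells were collected after 24 h. The labels give 1 cell line and the wild-type genotype (WT) for both groups. Separate cultures are not stated for the libraries, so the p-values cover the spread between samples and that spread may be technical.

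Hox genes encode transcription factors that bind DNA through a homeodomain, a helical domain encoded by a stretch of the gene called the homeobox. In mammals they lie in 4 clusters, Hoxa to Hoxd, and genes at matching places in different clusters form 13 paralog groups. The order of genes along a cluster follows their expression along the head-to-tail axis of the embryo. Low-numbered genes act from the hindbrain backwards, whereas the highest numbers act at the tail end, in the distal limb and in the genital and hindgut region. The embryonic forebrain and midbrain lie in front of the Hox-expressing territory. Mesenchymal cells of the adult, such as fibroblasts, keep a Hox pattern that reflects where in the body they came from.

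Values are FPKM, a fragment count per kilobase of transcript and per unit of sequencing depth, so levels can be compared between genes. The files summed to between 281433 and 297838 FPKM per library. From the step between the lowest values, the control libraries were estimated at about 17200000 to 21300000 fragments and the mitochondria libraries at about 22100000 to 27400000. These estimates did not overlap between the groups, but only 20.1% to 23.3% of low values were whole multiples of the step. At these depths a Hox gene near 1 FPKM, such as Hoxc9, rests on about 42 to 76 fragments per library, and Hoxd13 on about 2031 to 3315. Against the cell type in the labels, 9 of 15 endothelial markers were under 1 FPKM in all 6 libraries. The defining genes Cdh5, Pecam1 and Cldn5 reached at most 0.0685, 0.268 and 0.129 FPKM, whereas Eng and Cd34 lay at 55.5 FPKM or more. The endothelial receptors Flt1, Tie1 and Kdr lay between 2.70 and 11.1 FPKM. Of 13 fibroblast and mural markers 7 were under 1 FPKM throughout: Dcn, Lum, Tagln, Col1a2, Rgs5, Cspg4 and Thy1, at most at 0.853 FPKM. Col3a1, Col1a1, Pdgfrb and Pdgfra lay at 17.9 FPKM or more in every library. Of 8 astrocyte markers, the defining genes Gfap and Aqp4 were at most at 0.198 FPKM and listed at 0, and Gja1 and Aldoc, which other cells also express, reached 46.0 and 20.4 FPKM.

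Hox transcripts were present from all 4 clusters, and the levels were highest toward the 5′ end. The top gene was the group 13 member in Hoxb, Hoxc and Hoxd, and Hoxa10 in Hoxa. Of the 39 genes, 25 were at 1 FPKM or more in all 6 libraries, 7 were under 1 FPKM in all, and 7 lay on both sides. Summed over the family, Hox genes came to 259, 262 and 284 FPKM in control replicates 1 to 3 and to 256, 257 and 261 FPKM in mitochondria replicates 1 to 3. Paralog groups 9 to 13 held between 75.9% and 79.2% of that sum in each library, and the 4 genes of group 13 alone held between 42.3% and 49.4%. Groups 5 to 8 held 15.3% to 18.1% and groups 1 to 4 held 5.18% to 6.21%. In bulk RNA, fewer cells that express a gene and less RNA per cell cannot be told apart.

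**Figure D1:**
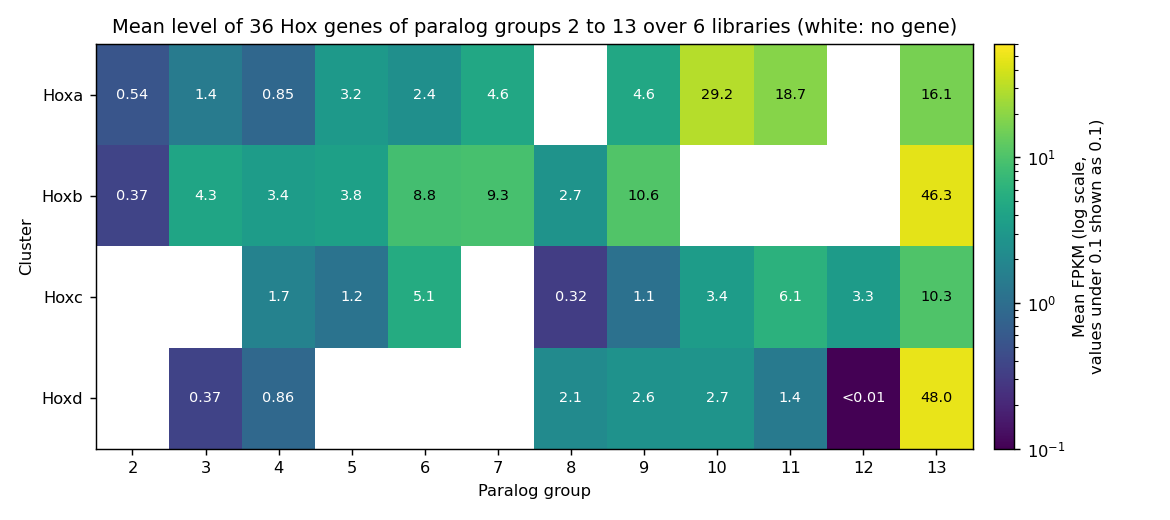
Mean FPKM over the 6 libraries for the 36 Hox genes of paralog groups 2 to 13, with clusters in rows, paralog groups in columns and a logarithmic colour scale on which values under 0.1 take the colour of 0.1. The group 13 column holds Hoxd13 at 48.0 and Hoxb13 at 46.3 FPKM, and Hoxd12 is near 0.

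The homeoboxes of the 4 group 13 genes are shown because these genes carried the highest summed level and because similar sequences can exchange reads. Each was cut from a GENCODE M21 transcript (GRCm38) as 180 bases of open reading frame, given 5′ to 3′ on the coding strand. Capitals mark the codons of the invariant recognition-helix motif, by which the homeobox was located in all 39 genes.
Hoxa13: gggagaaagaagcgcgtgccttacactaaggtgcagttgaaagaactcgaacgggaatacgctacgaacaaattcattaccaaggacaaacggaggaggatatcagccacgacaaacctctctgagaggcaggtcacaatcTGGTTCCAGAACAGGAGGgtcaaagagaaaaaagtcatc
Hoxb13: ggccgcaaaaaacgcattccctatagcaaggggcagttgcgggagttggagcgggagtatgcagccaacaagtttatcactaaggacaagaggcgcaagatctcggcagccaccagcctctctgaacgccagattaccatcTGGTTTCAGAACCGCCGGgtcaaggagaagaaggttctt
Hoxc13: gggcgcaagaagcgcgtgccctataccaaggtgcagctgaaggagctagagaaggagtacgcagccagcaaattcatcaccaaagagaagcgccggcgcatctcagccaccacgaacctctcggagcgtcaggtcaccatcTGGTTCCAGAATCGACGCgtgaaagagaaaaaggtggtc
Hoxd13: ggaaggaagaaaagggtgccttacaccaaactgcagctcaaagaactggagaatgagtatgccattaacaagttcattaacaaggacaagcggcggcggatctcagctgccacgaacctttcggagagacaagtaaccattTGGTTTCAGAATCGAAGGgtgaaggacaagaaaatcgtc
Between these 4 sequences, 67.2% to 77.2% of the 180 bases were identical over the 6 pairs, with Hoxb13 and Hoxd13 the least alike and Hoxa13 and Hoxc13 the most. Pairs within the other paralog groups shared 71.7% to 93.9% (36 pairs), and a group 13 gene paired with a gene of another group 46.1% to 64.4% (140 pairs). Of the 31-base words in the annotated transcripts of Hoxb13 and Hoxd13, 0 occur in any other annotated transcript on either strand. For Hoxc13 there were 2 such words of 2431, and for Hoxa13 there were 17 of 2585.

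Hoxd13 (ENSMUSG00000001819, GRCm38 chromosome 2, 74668310 to 74671599) and Hoxb13 (ENSMUSG00000049604, chromosome 11, 96194316 to 96197447) were the most abundant members. Hoxd13, which patterns the digits and the genital tubercle, was at 47.5, 48.9 and 48.0 FPKM in control replicates 1 to 3 and at 48.7, 50.9 and 43.8 FPKM in mitochondria replicates 1 to 3. Hoxb13, a gene of the tail bud and the prostate, was at 49.7, 53.3 and 63.8 FPKM in the controls and at 37.5, 35.9 and 37.9 FPKM with mitochondria. The order of these genes therefore turned over between the groups: in the controls every Hoxb13 value was above every Hoxd13 value, and with mitochondria every one was below. Their mean levels exceeded those of 95.9% (Hoxd13) and 95.7% (Hoxb13) of the 21899 protein-coding genes in the files, of which 50.1% had a mean of at least 1 FPKM.

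The other members of group 13 were lower. Hoxa13 (ENSMUSG00000038203, chromosome 6, 52257694 to 52260880), which acts with Hoxd13 in the distal limb, was at 13.7, 15.7 and 16.3 FPKM in the controls and at 16.2, 16.5 and 18.4 FPKM with mitochondria. Hoxc13 (ENSMUSG00000001655, chromosome 15, 102921103 to 102928814), known for its part in hair and nail formation, was at 12, 11.3 and 11.6 FPKM and then at 8.03, 8.86 and 10.2 FPKM. The Hoxa13 values of the groups overlapped, and those of Hoxc13 did not. Summed over group 13, the controls lay at 123, 129 and 140 FPKM (replicates 1 to 3) and the mitochondria libraries at 110.4, 112 and 110.3 FPKM.

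Directly next to Hoxd13, Hoxd12 was listed at 0 in 5 libraries and at 0.0202 FPKM in mitochondria replicate 1. Hoxb1 and Hoxd1, which act in the hindbrain and anterior trunk, were the 2 members listed at 0 in every library. A value listed at 0 in these files can be a failed estimate, although none of 12 housekeeping genes looked up was at 0. Suz12, a core subunit of Polycomb repressive complex 2 and named here after its values were seen, was likewise listed at 0 in 5 libraries. Hoxc12, the other member of group 12, was measured at 3.14, 2.72 and 4.79 FPKM in the controls and at 2.63, 2.90 and 3.78 FPKM with mitochondria, with overlap between the groups. It rests on few reads, about 52 to 105 fragments per library.

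The sequence before the start of transcription is shown for the high members Hoxd13 and Hoxa13 beside Hoxd12 and Hoxd1, which lie in the same cluster as Hoxd13 and were at or near 0. Each is the 250 bases before the RefSeq start (GRCm38.p6), 5′ to 3′ on the gene's strand, and capitals mark the letters TATAAA and CCAAT on either strand.
Hoxd13, chr2:74667975-74668224, plus strand: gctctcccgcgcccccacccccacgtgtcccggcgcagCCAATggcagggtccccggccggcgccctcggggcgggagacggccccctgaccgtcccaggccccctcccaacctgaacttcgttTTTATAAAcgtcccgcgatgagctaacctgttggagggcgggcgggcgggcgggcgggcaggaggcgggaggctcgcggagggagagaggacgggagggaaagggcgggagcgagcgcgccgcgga
Hoxa13, chr6:52260881-52261130, minus strand: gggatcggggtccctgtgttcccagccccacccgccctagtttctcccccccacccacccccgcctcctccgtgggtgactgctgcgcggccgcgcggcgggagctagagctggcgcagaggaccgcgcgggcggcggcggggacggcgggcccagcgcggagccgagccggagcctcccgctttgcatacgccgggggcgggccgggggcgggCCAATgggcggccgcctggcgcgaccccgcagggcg
Hoxd12, chr2:74674763-74675012, plus strand: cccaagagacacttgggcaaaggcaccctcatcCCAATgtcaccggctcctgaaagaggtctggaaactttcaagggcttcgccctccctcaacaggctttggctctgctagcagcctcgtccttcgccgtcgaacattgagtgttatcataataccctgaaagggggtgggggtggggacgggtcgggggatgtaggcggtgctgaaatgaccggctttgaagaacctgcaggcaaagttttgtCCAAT
Hoxd1, chr2:74762730-74762979, plus strand: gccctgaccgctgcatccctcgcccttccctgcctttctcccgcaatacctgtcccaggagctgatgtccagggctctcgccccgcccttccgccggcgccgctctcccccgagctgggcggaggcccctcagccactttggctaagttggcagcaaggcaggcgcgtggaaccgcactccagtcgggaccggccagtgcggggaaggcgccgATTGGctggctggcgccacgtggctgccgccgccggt
The RefSeq table held 24 such windows for 22 of the 39 genes. The Hoxd13 and Hoxa13 windows contain 31 and 35 CG dinucleotides, that of Hoxd12 contains 10 and that of Hoxd1 contains 24. Hoxa10 and Hoxa11, with higher means than Hoxa13, have 7 and 20 in the windows of Hoxa10 and 13 in that of Hoxa11. The window of Hoxb1, listed at 0, has 7. The windows shown therefore do not stand for high and low members in general. The median was 12.5 over the 24 Hox windows and 6 over the 32851 windows of the whole table. TATAAA occurs in 4 of the Hox windows (16.7%) and in 12.4% of all windows, and CCAAT in 14 Hox windows (58.3%) and in 33.8% of all. TGATTNAT, the joint letters of HOX proteins and their PBX partners, occurs in 2 Hox windows (8.3%), those of Hoxa2 and 1 of 2 of Hoxd11, and in 2.8% of all. These matches describe letters in a window, and no factor binding was measured.

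Groups 9 to 11 followed group 13 in level, led by the Hoxa cluster. Hoxa10 (ENSMUSG00000000938, chromosome 6, 52231197 to 52240854), which patterns the lumbar region and the uterus, was the third most abundant member. It was at 29.1, 28.1 and 28.9 FPKM in control replicates 1 to 3 and at 30.8, 29.5 and 29.0 FPKM with mitochondria, an overlapping set. Hoxa11 (ENSMUSG00000038210, chromosome 6, 52242106 to 52245810), which patterns the forearm and the kidney, was at 18.5, 15.2 and 13.5 FPKM and then at 20.3, 24.2 and 20.7 FPKM. Every mitochondria value of Hoxa11 was above every control value. An antisense transcript, Hoxa11os, covers 35.0% of the exonic bases of Hoxa11 and was itself at 10.2 ± 0.427 and 11.3 ± 0.862 FPKM (SD, n = 3). The sources used here do not give whether counting used strand, so part of the signal of either may belong to the other.

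Hoxa9, a gene of blood progenitors and of the trunk, was at 4.21, 4.50 and 3.90 FPKM in the controls and at 5.11, 5.52 and 4.37 FPKM with mitochondria. Hoxb9 was at 8.63, 9.74 and 12.6 FPKM and then at 11.01, 9.51 and 12.1 FPKM. Both sets overlapped. In the Hoxc cluster, Hoxc11 was at 7.14, 5.78 and 6.91 FPKM in the controls and at 5.62, 5.44 and 5.39 FPKM with mitochondria. Hoxc10, a gene of the hindlimb and lumbar spinal cord, was at 3.94, 3.94 and 4.48 FPKM and then at 2.28, 2.34 and 3.40 FPKM. The groups did not overlap for either gene, and Hoxc10 shares 166 exonic bases with an annotated Hoxc5 transcript on the same strand. Hoxc9 was near the lower limit, at 1.46, 0.932 and 1.02 FPKM and then at 0.811, 0.937 and 1.29 FPKM. In the Hoxd cluster, levels dropped sharply after Hoxd13. Hoxd11, which acts with Hoxa11 in the forearm, was at 0.866, 0.980 and 1.40 FPKM in the controls and at 1.68, 1.47 and 2.02 FPKM with mitochondria. Hoxd10 was at 2.64, 1.94 and 2.77 FPKM and then at 3.01, 3.00 and 2.95 FPKM. Neither gene overlapped between the groups. Hoxd9 overlapped, at 2.88, 2.58 and 2.58 FPKM and then at 2.496, 2.53 and 2.59 FPKM.

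Among the central groups 5 to 8, Hoxb6 and Hoxb7 were the most abundant. Hoxb7 was at 9.55, 9.38 and 9.13 FPKM in the controls and at 9.38, 9.24 and 9.05 FPKM with mitochondria, the smallest relative spread among the 30 genes with a mean of 1 FPKM or more. Hoxb6 was at 7.26, 7.93 and 9.74 FPKM and then at 8.99, 8.66 and 9.99 FPKM. Next came Hoxc6, at 4.40, 4.37 and 6.28 FPKM in the controls and 4.76, 5.01 and 6.0 FPKM with mitochondria. All 3 overlapped between the groups. Hoxa7 (ENSMUSG00000038236, chromosome 6, 52214491 to 52221854), a gene of the thoracic vertebrae, did not, with 4.26, 3.84 and 3.80 FPKM in the controls and 5.14, 5.30 and 5.52 FPKM with mitochondria. The antisense gene Hoxaas3 covers 20.4% of its exonic bases but averaged 0.417 FPKM. Hoxa5, which acts in the lung and the neck to thorax transition, was at 3.18, 2.93 and 2.64 FPKM and then at 3.48, 3.60 and 3.51 FPKM, also without overlap. Hoxb5 was at 3.22, 3.22 and 4.37 FPKM in the controls and at 4.04, 3.89 and 3.999 FPKM with mitochondria. Control replicate 3 stood above the other controls for Hoxb5, and likewise for Hoxb6, Hoxb8, Hoxb9, Hoxb13, Hoxc6 and Hoxc12. Mitochondria replicate 3 was also the highest of its group for these genes other than Hoxb5. For Hoxb8 the values were 1.98, 2.61 and 3.85 FPKM in the controls and 2.33, 1.89 and 3.25 FPKM with mitochondria, the widest relative spread among those 30. Hoxa6 was at 1.44, 2.61 and 2.31 FPKM and then at 2.46, 3.20 and 2.32 FPKM. Hoxd8 was at 2.58, 2.11 and 1.80 FPKM and then at 2.37, 1.77 and 2.16 FPKM. Control replicate 2 stood low for Hoxc5, at 1.33, 0.697 and 1.42 FPKM in the controls against 1.12, 1.29 and 1.05 FPKM with mitochondria. Hoxc8 was the 1 central gene under 1 FPKM in every library, between 0.251 and 0.391 FPKM.

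The anterior groups 1 to 4 were low, with Hoxb3 and Hoxb4 at their head. Hoxb4, a gene of blood stem cells and the cervical region, was at 3.72, 3.86 and 3.69 FPKM in the controls and at 2.94, 2.86 and 3.40 FPKM with mitochondria, without overlap. Hoxb3 was at 3.56, 5.16 and 4.62 FPKM and then at 4.28, 3.55 and 4.34 FPKM, with overlap. The antisense gene Hoxb3os spans 52.9% of the exonic bases of Hoxb3 and averaged 0.124 FPKM. Hoxc4 was at 1.90, 1.93 and 1.96 FPKM in the controls and at 1.62, 1.34 and 1.57 FPKM with mitochondria. Hoxa3, which acts in the thymus and parathyroid, was at 1.28, 0.980 and 1.36 FPKM and then at 1.65, 1.55 and 1.67 FPKM. These genes did not overlap between the groups, with Hoxc4 lower and Hoxa3 higher with mitochondria. Hoxa2, Hoxb2, Hoxd3, Hoxa4 and Hoxd4 had means under 1 FPKM and ranged from 0.235 to 1.05 FPKM over all libraries. Hoxd3 and Hoxd4 are uncertain, since the predicted gene Gm28230 shares 53.1% and 39.1% of their exonic bases on the same strand.

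**Figure D2:**
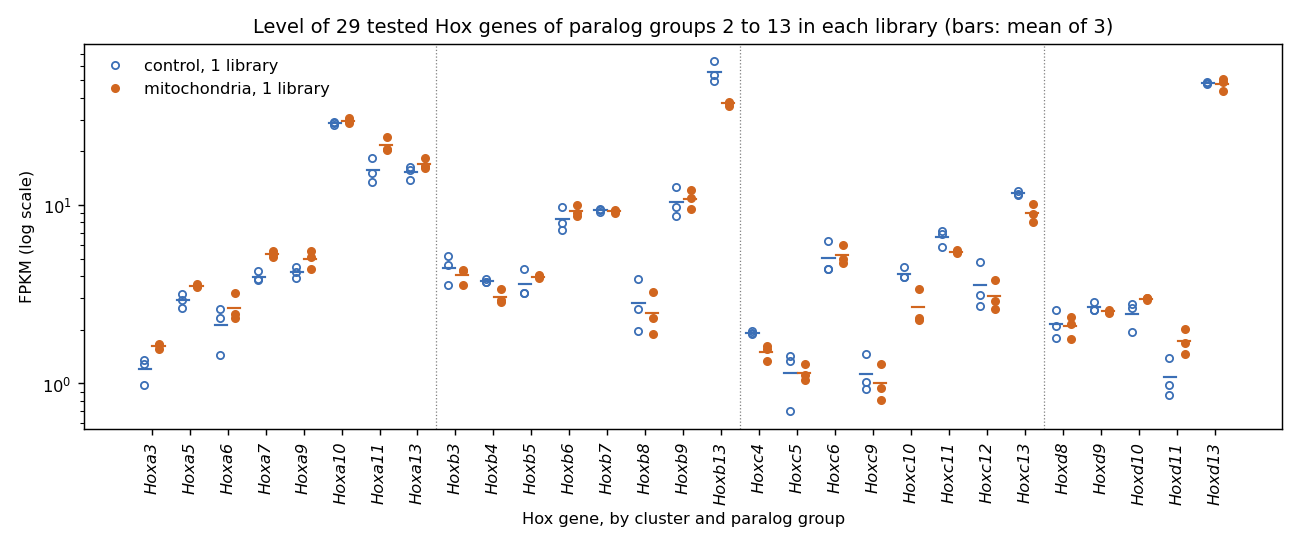
FPKM on a logarithmic axis for the 29 tested Hox genes of paralog groups 2 to 13, with 1 point per library, controls as open circles, mitochondria libraries as filled circles and short bars at the means of 3. Hoxb13 and Hoxc13 show all filled points below the open ones, and Hoxa7 and Hoxa11 show all above.

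With mitochondria, 1 Hox gene passed the test across all genes: Hoxb13 fell from 55.6 ± 7.31 to 37.1 ± 1.07 FPKM (SD, n = 3). Its log2 difference was −0.56 (SE 0.09, limma adjusted p = 0.0487), on the log2(FPKM + 1) scale, which understates differences of low genes. This call sat at the edge of the threshold of 0.05. It was kept with a pseudocount of 0.1 and without control replicate 3, the highest control. It was lost without any of the other 5 libraries (limma adjusted p from 0.0529 to 0.185), and with TMM scaling (0.0578), quantile normalization (0.0802), no filter (0.162) and the replicate number as a block (0.0619). The log2 difference lay between −0.46 (without control replicate 3) and −0.64 (without control replicate 1) when single libraries were left out. The count of 1 lower and 0 higher among the 30 tested members stands beside 0.649% and 0.467% of the 12639 genes tested, and 1.12% in either direction.

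The 9 members that did not reach 1 FPKM in at least 3 libraries were not tested. Hoxd11 was under 1 FPKM in 2 controls and would have been tested through its mitochondria libraries alone. At an unadjusted p under 0.05 there were 5 members higher and 6 lower of 30, where 6.58% of all tested genes lay under that p in the higher direction, 7.32% in the lower and 13.9% in either. In 13 of the 30 the groups did not overlap, 7 higher and 6 lower, against 21.0% of all genes tested. Hoxd11 is included among the higher members in both counts. The median log2 difference of the 30 was 0.03 and that of all genes tested −0.01. The median within-group coefficient of variation was 10.2% in the 30 and 7.87% for all genes tested. These sets were not matched for level, and among the 30 it ranged from 2.04% for Hoxb7 to 30.8% for Hoxb8.

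By cluster, the Hoxa genes shared a sign. All 9 tested Hoxa genes had positive log2 differences, from 0.05 for Hoxa10 to 0.45 for Hoxa11, with a median of 0.21, where 48.0% of all genes tested were above 0. The 9 stayed positive under each scaling and without each library in turn, and with no filter 10 of 11 were positive. None of the 9 passed the limma threshold over all genes, and 4 had an unadjusted p under 0.05. The nearest was Hoxa7, which went from 3.96 ± 0.256 to 5.32 ± 0.194 FPKM (log2 difference 0.35, SE 0.07, limma adjusted p = 0.0699). Hoxa11 went from 15.7 ± 2.52 to 21.7 ± 2.11 FPKM, a log2 difference of 0.45 (SE 0.12, limma adjusted p = 0.155). In 5 of the 9, Hoxa7 and Hoxa11 among them, the groups did not overlap, all higher with mitochondria, where 9.62% of all genes tested did so in that direction.

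In the Hoxc cluster, 6 of 8 tested genes had negative log2 differences, with a median of −0.18. The tally moved with the controls, to 8 of 8 without control replicate 2 and to 4 of 7 without control replicate 3. None passed the limma threshold, and 4 had an unadjusted p under 0.05. Hoxc10 went from 4.12 ± 0.310 to 2.67 ± 0.629 FPKM (log2 difference −0.49, SE 0.12, limma adjusted p = 0.143). Hoxc13 went from 11.7 ± 0.329 to 9.03 ± 1.09 FPKM (log2 difference −0.34, SE 0.09, limma adjusted p = 0.142). Hoxc11 and Hoxc4 had log2 differences of −0.23 and −0.22 with limma adjusted p-values of 0.289 and 0.251. For these 4 the groups did not overlap, all lower with mitochondria, against 11.4% of all genes tested.

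Hoxb and Hoxd did not share a direction among their members. Hoxb had 3 positive and 5 negative log2 differences, from −0.56 for Hoxb13 to 0.14 for Hoxb6, and outside Hoxb13 the nearest to the threshold was Hoxb4 (−0.23, SE 0.07, limma adjusted p = 0.236). Hoxd had 2 positive and 3 negative, and the reverse, 3 and 2, with quantile normalization and without control replicate 1, mitochondria replicate 2 or mitochondria replicate 3. With no filter 8 Hoxd genes were tested, 4 in each direction. Hoxd13 moved from −0.01 to 0.01 with quantile normalization. Hoxd11 and Hoxd10 had log2 differences of 0.39 (SE 0.12, limma adjusted p = 0.231) and 0.22 (SE 0.10, limma adjusted p = 0.423). Hoxd13 stood at 48.2 ± 0.708 and 47.8 ± 3.64 FPKM, a log2 difference of −0.01 (SE 0.06, limma adjusted p = 0.957). Group 13 was therefore split: Hoxb13 and Hoxc13 were lower without overlap, Hoxa13 had a log2 difference of 0.15 (SE 0.08, limma adjusted p = 0.472), and Hoxd13 was near 0. Whether clusters or members differ from each other in their response was not tested.

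**Figure D3:**
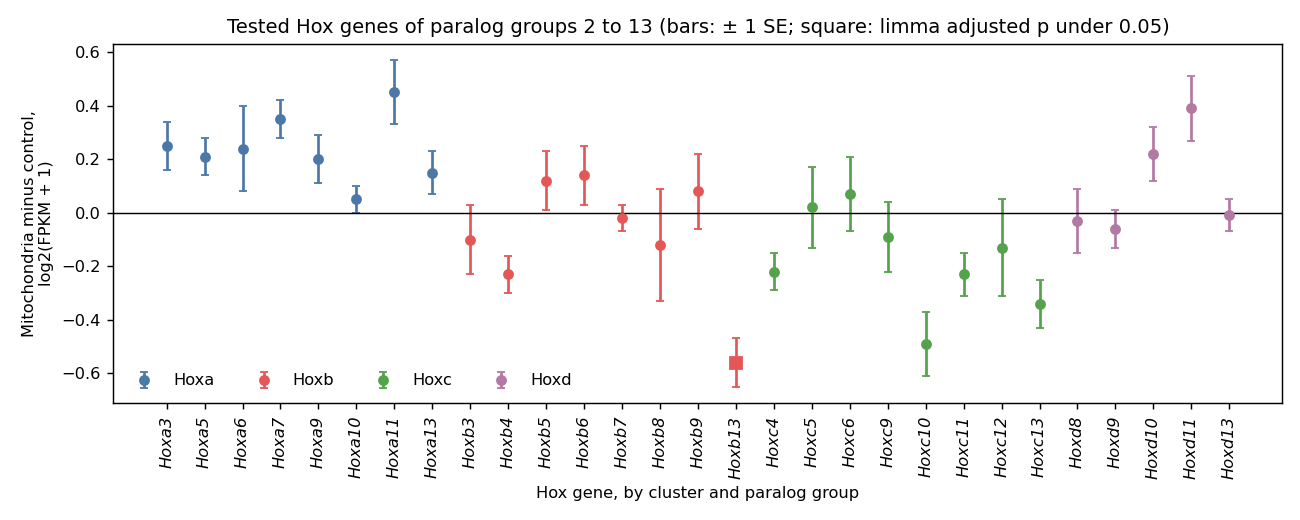
Difference of the 29 tested Hox genes of paralog groups 2 to 13 (mitochondria minus control, in log2(FPKM + 1) units), coloured by cluster, with bars of 1 SE and a square for the gene with a limma adjusted p under 0.05. The Hoxa genes shown lie above 0, and Hoxb13 is lowest at −0.56.

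Summed by cluster, Hoxa genes came to 78.1, 76.3 and 75.3 FPKM in control replicates 1 to 3 and to 88.2, 91.7 and 88.3 FPKM with mitochondria, without overlap. Hoxb genes came to 88.0, 95.6 and 112 FPKM and then to 80.8, 75.8 and 84.4 FPKM, with every mitochondria library below every control. Hoxb13 was the largest single part of that sum in every library. Hoxc sums of 35.7, 32.0 and 38.7 FPKM and then 27.2, 28.5 and 32.9 FPKM overlapped, as did Hoxd sums of 57.6, 58.1 and 57.5 FPKM and then 59.4, 61.0 and 55.0 FPKM. The family total overlapped between the groups, at 268 ± 13.3 and 258 ± 2.59 FPKM (SD, n = 3). Paralog group sums that did not overlap lay in both directions. With mitochondria the group 11 sum was higher, at 23.4 ± 2.66 and 28.9 ± 1.86 FPKM, as were those of group 5 (7.67 ± 0.795 and 8.66 ± 0.1095 FPKM) and group 7 (13.3 ± 0.449 and 14.5 ± 0.0275 FPKM). The group 13 sum was lower, at 131 ± 8.42 and 111 ± 1.06 FPKM, as was that of group 4 (7.31 ± 0.106 and 6.38 ± 0.539 FPKM). So was that of groups 9 to 13 together (211 ± 9.79 and 198 ± 1.62 FPKM). Hoxb13 belongs to the Hoxb, group 13 and groups 9 to 13 sums, and went from 55.6 to 37.1 FPKM. That fall was about as large as those of the Hoxb and group 13 sums and larger than that of groups 9 to 13. Of the other group 13 members, Hoxc13 was lower, Hoxd13 was nearly level and Hoxa13 had a higher mean (15.2 and 17.0 FPKM). Estimated depth was higher in every mitochondria library than in every control, by a narrow margin (about 21300000 fragments in control replicate 3 and 22100000 in mitochondria replicate 2). The part of depth in these differences was not tested.

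Markers of cell types also differed between the groups. Of 13 fibroblast and mural markers 6 were tested and 1 passed: Col1a1, a fibrillar collagen chain, fell from 137.9 ± 2.45 to 83.9 ± 3.19 FPKM (limma adjusted p = 0.00547), a call kept without each library in turn. At an unadjusted p under 0.05, 3 of the 6 were higher, beside 6.58% of all genes tested, and 1 was lower, beside 7.32%. The 3 were Pdgfra, from 18.4 ± 0.756 to 22.6 ± 0.587 FPKM, Acta2 and Des (limma adjusted p = 0.0702, 0.204 and 0.265). The summed level of that list was 431 to 465 FPKM in the controls and 382 to 420 FPKM with mitochondria. Col3a1 and Col1a1 were the largest parts of that sum. Of 15 endothelial markers 6 were tested and 1 passed: Cd34, a surface sialomucin, rose from 60.3 ± 2.49 to 80.1 ± 1.84 FPKM (limma adjusted p = 0.0265), a call kept without control replicate 3 and lost without each of the other 5 libraries, with no filter and with the replicate block. Over all genes tested, 0.649% passed in the lower direction and 0.467% in the higher. At an unadjusted p under 0.05, 1 endothelial marker was higher and 2 were lower, beside 6.58% and 7.32% of all genes tested. The 2 were Flt1, from 10.0 ± 0.932 to 7.75 ± 0.278 FPKM, and Kdr, from 3.94 ± 0.249 to 3.00 ± 0.262 FPKM (limma adjusted p = 0.114 and 0.143). The endothelial sum was 137 to 145 FPKM in the controls and 159 to 172 FPKM with mitochondria. Eng and Cd34 were the largest parts of that sum. The mitochondria given came from astrocytes, and of 8 astrocyte markers 3 were tested and 0 passed. In that list Aldh1l1, which was under the level needed for testing, was at 0.391 ± 0.0792 and 1.06 ± 0.0910 FPKM, Slc1a2, also not tested, at 0.0476 ± 0.0304 and 0.122 ± 0.0471 FPKM, and Aldoc at 14.1 ± 1.61 and 17.9 ± 2.28 FPKM (limma adjusted p = 0.268). These 3 did not overlap, all higher with mitochondria, where 9.62% of all genes tested did so in that direction. That share covers tested genes only, so it is no background for Aldh1l1 and Slc1a2. The other 5 overlapped or, for Aqp4, were listed at 0. Gja1 had a lower mean with mitochondria, at 34.5 ± 19.7 and 24.4 ± 1.21 FPKM. S100b and Slc1a3 also had lower means, and Gfap a higher one. Of the 3 tested astrocyte markers, 1 was higher and 2 were lower, with a median log2 difference of −0.04. The astrocyte sum was 26.5 to 63.3 FPKM in the controls and 42.1 to 48.2 FPKM with mitochondria. The part of these marker differences in the Hox values was not tested. Aldh1l1, Slc1a2, Slc1a3, S100b, Flt1, Tie1, Kdr and the fibroblast and mural markers other than Col3a1 and Col1a1 were named after their values were seen.

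**Figure D4:**
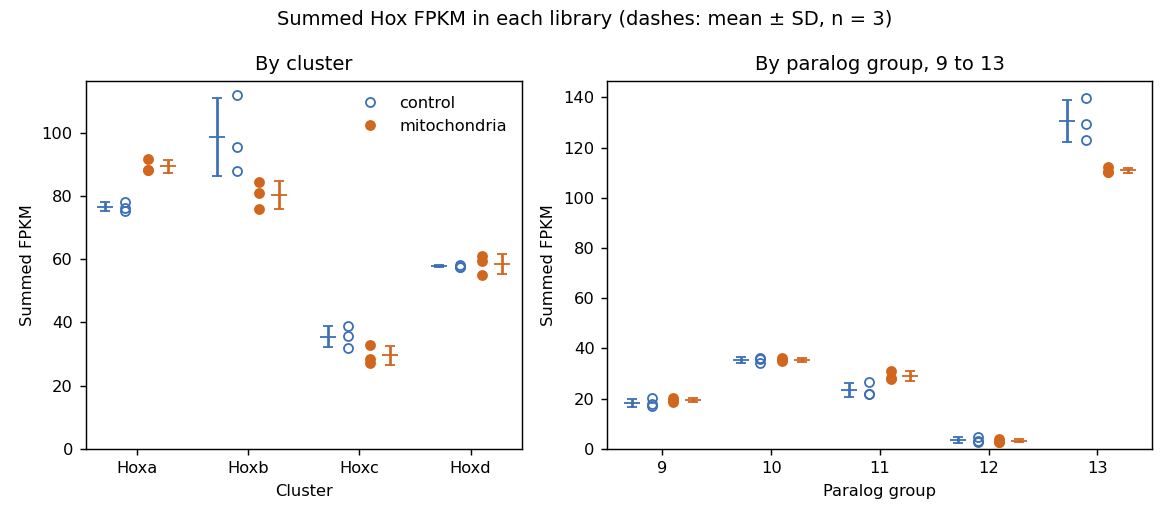
Summed FPKM of the Hox genes by cluster (left) and for paralog groups 9 to 13 (right), with 1 circle per library (open for control, filled for mitochondria) and dashes with bars for the mean ± SD of 3 libraries. The Hoxa sums with mitochondria, 88.2 to 91.7, lie above the control sums, and the group 13 sums, 110.3 to 112, lie below theirs. Hoxb13 is part of both the Hoxb and the group 13 sums.

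The homeodomain proteins of the PBX, MEIS and PKNOX families bind DNA together with Hox proteins. Of 11 genes of this TALE class, the related Tgif genes included, 10 were tested and 0 passed the limma threshold in either direction, with 2 higher at an unadjusted p under 0.05, beside 6.58% of all genes tested, and a median log2 difference of 0.01. Pbx2 was at 26.0 ± 1.08 and 25.8 ± 0.153 FPKM (SD, n = 3) in control and mitochondria libraries. Pbx3 had the smallest p, at 3.97 ± 0.187 and 4.88 ± 0.292 FPKM (limma adjusted p = 0.171). The Cdx and ParaHox genes, relatives that switch on posterior Hox genes in the embryo or pattern the gut, were under 1 FPKM in all libraries for each of 6 genes, with Cdx2 at up to 0.103 FPKM and Gsx2 at up to 0.0652 FPKM.

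Chromatin regulators that hold Hox clusters off or on were expressed in both groups. Of 30 Polycomb genes, which keep Hox genes silent, 28 were tested and 0 passed the limma threshold or had an unadjusted p under 0.05. Rybp was at 72.7 ± 3.45 and 68.4 ± 2.34 FPKM, Rbbp7 at 49.8 ± 7.62 and 48.3 ± 4.33 FPKM, and Yaf2, with the smallest p, at 47.9 ± 1.96 and 43.8 ± 1.83 FPKM (limma adjusted p = 0.378). The 2 not tested were Suz12 and Cbx7, a chromodomain reader between 0.287 and 0.574 FPKM, named after its values were seen. Of 17 trithorax, MLL and H3K27 demethylase genes, which keep Hox genes active, all were tested and 0 passed, with 1 lower at an unadjusted p under 0.05, beside 7.32% of all genes tested. That was Dot1l, an H3K79 methyltransferase, at 8.46 ± 0.399 and 7.30 ± 0.464 FPKM (limma adjusted p = 0.280), while Dpy30 and Wdr5 were the highest, at 23.6 ± 3.50 and 24.5 ± 1.87 FPKM and at 16.2 ± 0.276 and 15.4 ± 0.353 FPKM.

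Retinoic acid switches on 3′ Hox genes in the embryo. Of 18 genes of its pathway 10 were tested, 1 passed in the lower direction and 0 in the higher, beside 0.649% and 0.467% of all genes tested. The receptor gene Rarg was the highest, at 72.2 ± 0.773 and 67.5 ± 1.62 FPKM. The 1 called gene was Crabp1, an intracellular carrier of retinoic acid, at 7.86, 6.62 and 12.7 FPKM in the controls and 2.14, 3.01 and 2.11 FPKM with mitochondria (limma adjusted p = 0.0343), a call kept without control replicate 3 and lost without each of the other 5 libraries, with no filter and with the replicate block.

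Long noncoding RNAs of the clusters were mostly low. Of 13 listed, 11 were in the files, 6 of these were under 1 FPKM in all libraries and 4 were tested, with 0 passing the limma threshold and 1 higher at an unadjusted p under 0.05, beside 6.58% of all genes tested. Hoxa11os was the highest, followed by Hotairm1 at 2.54 ± 0.327 and 2.74 ± 0.155 FPKM. Hoxd3os1 had the smallest p, at 0.814, 0.690 and 0.780 FPKM and then at 1.34, 1.07 and 1.19 FPKM (limma adjusted p = 0.153). It was the 1 higher, but it was tested through its mitochondria libraries alone, so no conclusion is drawn from its p. It is antisense to Hoxd3 and Hoxd4. Outside the clusters, 18 of 22 listed neighbours were in the files and 13 were tested, with 0 passing. At an unadjusted p under 0.05, 1 neighbour was higher and 3 were lower, beside 6.58% and 7.32% of all genes tested. Hnrnpa1 and Atp5g2 were the highest, at 201 ± 18.01 and 171 ± 16.2 FPKM and at 116 ± 6.11 and 119.6 ± 3.80 FPKM, and Tax1bp1 had the smallest p, at 62.6 ± 1.56 and 52.4 ± 1.01 FPKM (limma adjusted p = 0.0665). Evx1 and Evx2, homeobox genes that lie past Hoxa13 and Hoxd13 and named after their values were seen, were at most at 0.0290 and 0.251 FPKM, far below their Hox neighbours.

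Transcription factors that mark other positions were largely low. Of 24 genes of the forebrain to hindbrain, 19 were under 1 FPKM in all libraries, 8 of them listed at 0 throughout, and 4 were tested with 0 passing the limma threshold or an unadjusted p of 0.05. Lhx2, a forebrain and limb factor, was at 4.13 ± 0.471 and 4.30 ± 0.510 FPKM. Irx5 had the smallest p, at 1.41 ± 0.567 and 0.851 ± 0.0367 FPKM (limma adjusted p = 0.393), and was tested through its controls alone. Of 35 genes of limb and trunk mesoderm, 23 were under 1 FPKM in all libraries and 12 were tested, with 1 passing in the higher direction, beside 0.467% of all genes tested. Twist1, a mesenchymal factor, was the highest at 71.1 ± 1.32 and 61.1 ± 3.30 FPKM, and Gata4, a factor of heart and visceral mesoderm, was at 26.5 ± 1.40 and 27.6 ± 2.09 FPKM. The called gene was Tbx2, a limb and heart factor, at 4.10, 3.88 and 3.38 FPKM in the controls and 7.65, 7.24 and 6.91 FPKM with mitochondria (limma adjusted p = 0.0131), a call lost without control replicate 2, mitochondria replicate 1 or mitochondria replicate 2, and with no filter. The limb-type selectors Tbx4, Tbx5 and Pitx1, named after their values were seen, were at most at 0.0796, 0 and 0.0261 FPKM.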

How the data were processed

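Gene expression was measured by mRNA sequencing in 6 libraries, 3 control and 3 with mitochondria. The authors deposited 1 column per library, read here as FPKM from the values, since the headers name no unit. The submitters' processing notes name StringTie 1.3.1c, STAR 2.5.3a, FastQC 0.11.5 and GRCm38, without roles or settings. Symbols, positions and exonic lengths came from GENCODE M21 (55154 of 55335 identifiers matched) and promoters from RefSeq. Depth was estimated from the most frequent lowest value times length in genes with 1 transcript, and since 20.1% to 23.3% of low values were whole multiples of it (tolerance 0.02), reads could not be recovered and no count model was used.

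The model for log2(FPKM + 1) had group as its only term (limma 3.58.1, R 4.3.3, trended and robust empirical Bayes) and covered the 12639 genes that reached 1 FPKM in 3 libraries. Two-sided p-values were adjusted by Benjamini-Hochberg across these genes, with 0.05 as the threshold. The code was tested on simulated data. Alternatives were a pseudocount of 0.1, no filter, TMM scaling, quantile normalization, a replicate block and leaving out every library in turn. The members and lists were chosen with earlier results of these data known. Named genes were all 39 Hox genes (with each library's value where the mean was 1 FPKM or more) and, from each other list, the 2 highest and up to 2 called genes, or else the smallest p. Results for some of these genes are not reported here.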

Additional observations from a re-analysis of the deposited data

How the results depend on the processing

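Across all genes limma called 141 with the settings described, 137 with a pseudocount of 0.1, 147 with TMM scaling and 152 with quantile normalization, but 13 with no filter, where 29365 genes were tested, and 56 with the replicate number as a block. The number ranged from 14 to 88 when single libraries were left out. The 1 Hox gene called became 0 with no filter, TMM scaling, quantile normalization and the replicate block, and 0 to 1 without single libraries. With TMM scaling 25 Hox genes were at 1 FPKM or more in all libraries, as without it. Same-numbered libraries correlated in their deviations from the group means at 0.10, 0.05 and 0.30 (replicates 1 to 3), and differently numbered ones at −0.20 to 0.12. Replicate 3 correlated best with its own number in both groups, whereas control replicate 2 correlated best with mitochondria replicate 1. What a shared number stands for is not stated. Signs reversed in 13 of 327 pairs of gene and setting, in 7 genes. Hoxd13 was at 0.01 with quantile normalization. When single libraries were left out, the log2 difference ranged from −0.28 to 0.07 for Hoxb8, −0.03 to 0.22 for Hoxb9, −0.14 to 0.11 for Hoxc5, −0.02 to 0.21 for Hoxc6, −0.26 to 0.05 for Hoxc12, −0.11 to 0.07 for Hoxd8 and −0.06 to 0.05 for Hoxd13. The cause was not tested. Hoxc9, near 1 FPKM, rests on about 42 to 76 fragments per library, which limits its precision.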
